A study of Mus musculus with 4 samples.

Results

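Toll-like receptors are innate sensors of microbial ligands and nucleic acids that B cells carry beside the B cell receptor. The genes described here are 7 Toll-like receptor genes (*Tlr1*, *Tlr2*, *Tlr3*, *Tlr4*, *Tlr6*, *Tlr7* and *Tlr9*), the related receptor gene *Cd180*, its partner *Ly86* and the adaptor gene *Myd88*. They were chosen by name, with earlier results of these data known, and all 10 were found among the 41214 genes of the count table and passed the filter on low counts. RNA-seq was done on unstimulated splenic B220+ cells of MIZ-1WT and MIZ-1DPOZ mice, with 2 biological replicates per genotype, and the comparison asks how loss of the POZ domain of MIZ-1 alters their transcriptome. MIZ-1 is a zinc finger transcription factor encoded by *Zbtb17*. In the MIZ-1DPOZ group (labelled Miz-1 deltaPOZ), the floxed domain was removed by MB1-Cre, a recombinase placed in the *Mb1* (*Cd79a*) gene and active in B cells, so that other cells in the preparation keep the full gene. The controls are labelled WT, and whether they carried Cre is not given in the sources used here. Both groups were young adult mice on a C57BL/6 background, and cells were taken by positive selection for B220 on magnetic beads.

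The receptors fall into those that work at the cell surface and those that work in endosomes. TLR2 pairs with TLR1 or TLR6 to bind bacterial lipoproteins, and TLR4 with its partner MD-2 binds lipopolysaccharide. TLR3, TLR7 and TLR9 sense double-stranded RNA, single-stranded RNA and unmethylated CpG DNA in endosomes, to which the chaperone UNC93B1 carries them. CD180 resembles TLR4 but lacks its signaling domain, and it needs MD-1, the product of *Ly86*, to reach the surface. MYD88 passes on the signal of these Toll-like receptors except TLR3, which uses TRIF (*Ticam1*). Marginal zone B cells are known for strong responses to Toll-like receptor ligands, and plasmacytoid dendritic cells, which also carry B220, for TLR7 and TLR9.

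The promoters of *Tlr3* and *Tlr9* are shown because these genes had the highest and the lowest log2 fold change among the endosomal receptors. The windows run from 250 bases before to 50 bases after the RefSeq start, 5′ to 3′ on the strand of the gene. In GRCm38.p6 they lie at chr8:45410331-45410630 on the minus strand for *Tlr3* and at chr9:106222348-106222647 on the plus strand for *Tlr9*. Capitals mark matches on either strand to the PU-box (GAGGAA), to the E-box (CACGTG) or to the interferon-stimulated response element (GAAA, then 2 bases of any kind, then GAAA again).
Tlr3: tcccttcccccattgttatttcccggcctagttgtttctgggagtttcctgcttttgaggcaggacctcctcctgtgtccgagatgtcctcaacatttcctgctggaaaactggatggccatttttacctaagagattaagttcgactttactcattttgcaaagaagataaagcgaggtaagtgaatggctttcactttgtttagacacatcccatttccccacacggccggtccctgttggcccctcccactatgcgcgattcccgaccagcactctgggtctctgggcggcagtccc
Tlr9: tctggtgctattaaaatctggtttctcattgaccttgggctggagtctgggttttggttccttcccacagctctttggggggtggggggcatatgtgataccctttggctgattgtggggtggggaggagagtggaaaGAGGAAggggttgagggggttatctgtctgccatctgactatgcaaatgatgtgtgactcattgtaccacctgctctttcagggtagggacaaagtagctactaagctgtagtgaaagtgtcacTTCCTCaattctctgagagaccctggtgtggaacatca
The search allowed no mismatch. The *Tlr3* window held no exact match to these motifs, and the *Tlr9* window held 2 PU-boxes, 1 on each strand. RefSeq windows were found for 8 of the 10 genes, all but *Tlr4* and *Tlr7*. The *Myd88* window held 1 interferon-stimulated response element, and 1 of the 2 *Tlr6* windows held 2 that overlap each other. One *Tlr1* window held a PU-box and the other an E-box, and no match was found in the windows of *Tlr2*, *Cd180* and *Ly86*. Over 32544 promoter windows of the same length, 28.1% held a PU-box, 7.17% an E-box and 3.45% the interferon-stimulated response element. A match is a run of letters and not a measured binding site.

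Counts on genes summed to between 43026814 and 46387209 per library. Levels are given as CPM, the counts scaled to the library size after TMM normalization. *Zbtb17* had 47.8 and 46.3 CPM in MIZ-1WT replicates 1 and 2 and 37.3 and 38.0 CPM in the MIZ-1DPOZ replicates, counted over all exons together, so the deletion itself was not checked. *Cd79a*, the gene that holds the Cre, had 336 and 311 CPM in MIZ-1WT and 103 and 135 CPM in MIZ-1DPOZ. The B cell gene *Ms4a1* (CD20) was abundant in every library, with at least 3309 CPM. Macrophage transcripts were present as well and stood apart by genotype, since all 16 genes of a macrophage list were higher in MIZ-1DPOZ, with a summed level of 952 and 1262 CPM in MIZ-1WT against 5646 and 3572 CPM in MIZ-1DPOZ. *Xist* (1.12 and 1.43 CPM against 801 and 930 CPM) and the Y-linked gene *Ddx3y* (363 and 354 CPM against 14.3 and 14.2 CPM) also separated the genotypes, so sex and genotype cannot be told apart here.

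Among the 10 genes, *Tlr2*, *Tlr3*, *Tlr4* and *Tlr7* were higher in MIZ-1DPOZ at an adjusted p under 0.05 and none was lower (edgeR's quasi-likelihood test over 14554 genes with Benjamini-Hochberg adjustment, used throughout). Over all tested genes 40.0% were called, 21.1% as higher and 18.9% as lower, so the 4 of 10 genes called match the share in the whole table. *Tlr3* and *Tlr7* also passed limits based on those of the study (0.6 on the log2 scale, applied here with an unadjusted p under 0.05), which 20.3% of all tested genes passed and 15.0% passed as higher. Both MIZ-1DPOZ libraries lay above both MIZ-1WT libraries for 5 of the 10 genes and below them for 3, and the genotypes overlapped for 2. Of all tested genes, 74.8% did not overlap, 37.2% with MIZ-1DPOZ above and 37.6% with it below. The log2 fold changes of the 10 genes had a median of 0.12 and ran from -0.28 to 1.55, beside a median of -0.0064 over all tested genes. With any library left out, fewer genes were called in the whole table. Without MIZ-1WT replicate 1 the log2 fold changes were 1.53 for *Tlr3*, 0.92 for *Tlr7*, 0.30 for *Tlr4* and 0.20 for *Tlr2*. Without MIZ-1WT replicate 2 they were 1.57, 0.78, 0.34 and 0.27. Without MIZ-1DPOZ replicate 2, *Tlr1* (-0.22), *Tlr9* (-0.43) and *Cd180* (-0.47) had larger negative values than in the full fit.

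**Figure D1:**
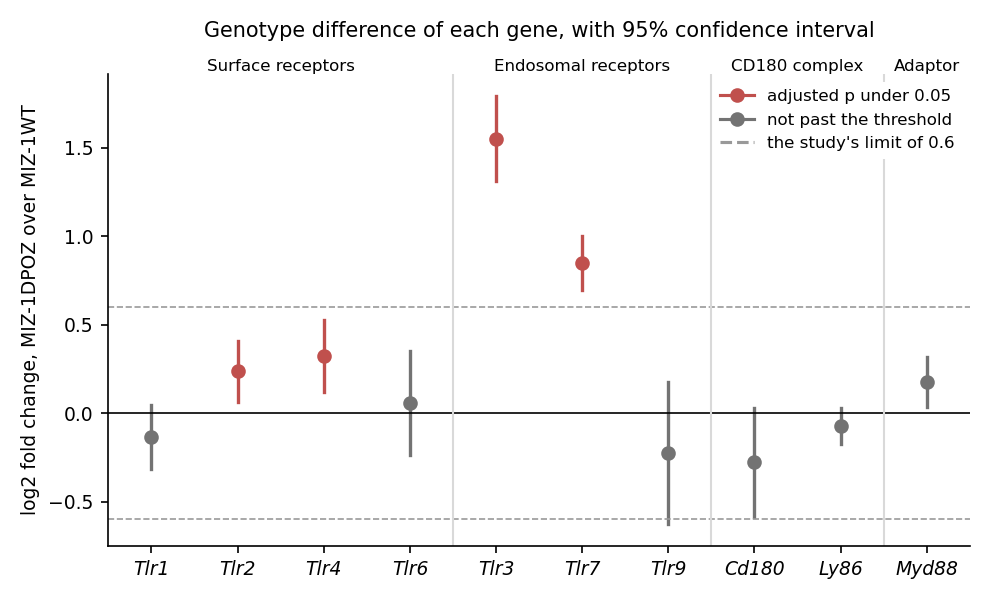
Log2 fold change of each of the 10 genes (vertical axis, MIZ-1DPOZ over MIZ-1WT) with its 95% confidence interval, grouped by role; red marks an adjusted p under 0.05, grey the others, and dashed lines the study's limit of 0.6 in either direction. *Tlr3* at 1.55 and *Tlr7* at 0.85 lie above the limit, with intervals that start at 1.31 and 0.70.

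*Tlr3*, the receptor for double-stranded RNA, had the largest log2 fold change of the 10 genes. The gene (ENSMUSG00000031639, protein coding) lies on the minus strand of chromosome 8 in GRCm38, between 45395665 and 45411080. It had 424 and 418 counts in MIZ-1WT replicates 1 and 2 and 1272 and 1359 counts in the MIZ-1DPOZ replicates. In normalized terms this was 9.72 and 9.95 CPM against 26.7 and 31.0 CPM, and the gap between the genotypes was several times that between the MIZ-1DPOZ libraries. *Tlr3* rose 2.93-fold, by 1.55 on the log2 scale (standard error 0.10, adjusted p = 0.000784). It kept its call under each alternative that tested it, with values from 1.46 to 1.66 when a library was left out. The antisense gene *Gm45542* shares 381 exon bases with *Tlr3*, and 5.30% of the 50-base windows of *Tlr3* transcripts also occur there, so a small part of the count is uncertain.

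*Tlr7*, a receptor for single-stranded RNA (ENSMUSG00000044583, protein coding), lies on the minus strand of the X chromosome between 167304929 and 167330558. Its counts were 3292 and 2887 in MIZ-1WT and 6288 and 5591 in MIZ-1DPOZ. The levels of 75.5 and 68.7 CPM in MIZ-1WT and of 132 and 127 CPM in MIZ-1DPOZ did not overlap. *Tlr7* rose 1.80-fold, by 0.85 on the log2 scale (standard error 0.06, adjusted p = 0.000999), and kept its call under every alternative run, with values from 0.78 to 0.92. It is X-linked, and the genotypes differed in sex-linked transcripts as given above. Of the 479 tested X-linked genes 31.5% were called, 14.6% as higher, and 9.81% passed the study's limits as higher. Their median log2 fold change was -0.0245. For *Tlr7*, sex and genotype cannot be told apart.

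*Tlr9*, the receptor for CpG DNA (ENSMUSG00000045322, protein coding), lies on the plus strand of chromosome 9 between 106222598 and 106226883. Its 29.1 and 24.0 CPM in MIZ-1WT overlapped with the 19.4 and 26.1 CPM in MIZ-1DPOZ. The fitted difference was -0.23 on the log2 scale (standard error 0.16, adjusted p = 0.314), and its 95% confidence interval from -0.63 to 0.18 ended below the start of the intervals of *Tlr3* and *Tlr7*. The value depended on single libraries. It was -0.43 (adjusted p = 0.0300) without MIZ-1DPOZ replicate 2, -0.017 without MIZ-1DPOZ replicate 1, -0.36 without MIZ-1WT replicate 2 and -0.082 without MIZ-1WT replicate 1.

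The balance of the endosomal receptors can be read within each library, as CPM per kilobase of annotated exon. *Tlr7* exceeded *Tlr9* by 2.21 and 2.44 times in MIZ-1WT and by 5.80 and 4.16 times in MIZ-1DPOZ. *Tlr3* stood at 0.223 and 0.276 of the *Tlr9* level in MIZ-1WT and at 0.921 and 0.793 of it in MIZ-1DPOZ. *Tlr3* against *Tlr7* moved less, from 0.101 and 0.114 to 0.159 and 0.191. None of these ratios overlapped between the genotypes. Of all tested genes, 74.8% did not overlap in their own levels, and no such share was taken over ratios. The ratios restate the levels given above and were not tested. They are of bulk RNA and need not hold within one cell type.

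The surface receptors differed by less than *Tlr3* and *Tlr7*. *Tlr4* (ENSMUSG00000039005, protein coding), on the plus strand of chromosome 4 between 66827584 and 66930284, encodes the lipopolysaccharide receptor. It measured 106 and 109 CPM in MIZ-1WT and 146 and 124 CPM in MIZ-1DPOZ, and the mutant libraries were both higher but lay further apart than the controls did. *Tlr4* rose 1.25-fold, by 0.32 on the log2 scale (standard error 0.08, adjusted p = 0.0272). The call was lost without MIZ-1WT replicate 1 (0.30, adjusted p = 0.145) and without MIZ-1WT replicate 2 (0.34, adjusted p = 0.107), and without MIZ-1DPOZ replicate 1 the value was 0.21 (adjusted p = 0.0181).

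*Tlr2* (ENSMUSG00000027995, protein coding) lies on the minus strand of chromosome 3 between 83836272 and 83841767. Its 24.0 and 25.3 CPM in MIZ-1WT lay just below the 28.2 and 29.8 CPM in MIZ-1DPOZ. *Tlr2* rose 1.18-fold, by 0.24 on the log2 scale (standard error 0.07, adjusted p = 0.0416), close to the threshold. It no longer passed with the Wald test of DESeq2 (adjusted p = 0.0767), without any filter (adjusted p = 0.0564) or with a replicate block (adjusted p = 0.0662). Leaving out MIZ-1WT replicate 1 (adjusted p = 0.214), MIZ-1WT replicate 2 (adjusted p = 0.115) or MIZ-1DPOZ replicate 2 (adjusted p = 0.0777) also ended the call.

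The partners of TLR2 did not pass the test. *Tlr1* (ENSMUSG00000044827, protein coding), on the minus strand of chromosome 5 between 64924679 and 64933563, measured 179 and 177 CPM in MIZ-1WT and 151 and 173 CPM in MIZ-1DPOZ. Both mutant libraries lay below the controls, replicate 2 only slightly, and the fitted value was -0.13 on the log2 scale (adjusted p = 0.190, 95% confidence interval from -0.31 to 0.04). Without MIZ-1DPOZ replicate 2 it was -0.22 (adjusted p = 0.0123), and without replicate 1 it was -0.028. *Tlr6* (ENSMUSG00000051498, protein coding), on the same strand between 64952031 and 64960097, measured 11.7 and 13.9 CPM in MIZ-1WT and 12.6 and 14.1 CPM in MIZ-1DPOZ, and the genotypes overlapped. Its log2 fold change of 0.06 (adjusted p = 0.721) had a 95% confidence interval from -0.23 to 0.35, and the sign turned without MIZ-1WT replicate 1 (-0.063) and without MIZ-1DPOZ replicate 2 (-3.5e-05). These neighboring genes are close copies, and 15.4% of the 50-base windows of *Tlr1* and 12.3% of those of *Tlr6* also occur in other genes, mostly in one another, so their counts are uncertain to that extent.

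**Figure D2:**
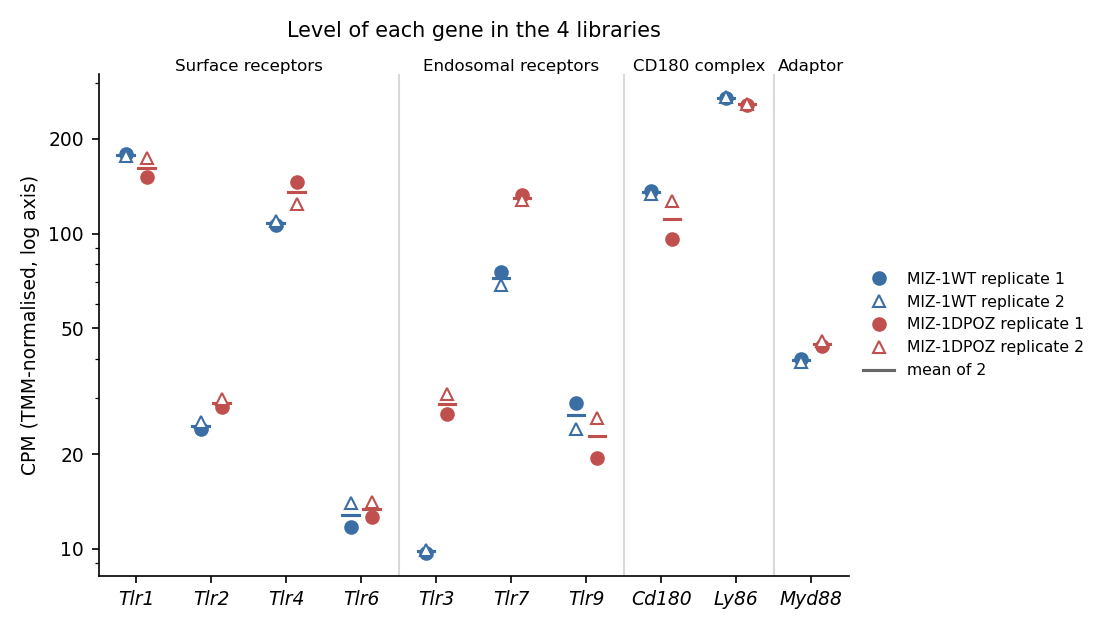
Level of each gene in the 4 libraries (vertical axis, TMM-normalized CPM, log axis), with circles for replicate 1, triangles for replicate 2 and a bar at the mean of each genotype. *Tlr3* goes from 9.72 and 9.95 CPM in MIZ-1WT to 26.7 and 31.0 CPM in MIZ-1DPOZ, while the MIZ-1DPOZ libraries of *Cd180* lie at 96.3 and 127 CPM.

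*Cd180* (ENSMUSG00000021624, protein coding), on the plus strand of chromosome 13 between 102693558 and 102739629, measured 137 and 134 CPM in MIZ-1WT and 96.3 and 127 CPM in MIZ-1DPOZ. Both mutant libraries were below both controls, but they lay far from each other, and *Cd180* did not pass the test (-0.28 on the log2 scale, standard error 0.12, adjusted p = 0.126, 95% confidence interval from -0.59 to 0.03). The difference rested on MIZ-1DPOZ replicate 1. Without it the value was -0.085 (adjusted p = 0.237), and without replicate 2 it was -0.47 (adjusted p = 0.000495). *Mast4* overlaps 182 exon bases of *Cd180* on the opposite strand.

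*Ly86*, the gene of the CD180 partner MD-1 (ENSMUSG00000021423, protein coding), lies on the plus strand of chromosome 13 between 37345208 and 37419036. It measured 269 and 271 CPM in MIZ-1WT and 256 and 257 CPM in MIZ-1DPOZ. On the log2 scale, these were the smallest differences between replicates of the 10 genes in either genotype. *Ly86* did not pass the test (-0.07 on the log2 scale, adjusted p = 0.216, 95% confidence interval from -0.18 to 0.03). Per kilobase, *Cd180* stood at 0.410 and 0.397 of the *Ly86* level in MIZ-1WT and at 0.303 and 0.396 of it in MIZ-1DPOZ.

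*Myd88* (ENSMUSG00000032508, protein coding) lies on the minus strand of chromosome 9 between 119335934 and 119341411, and 290 of its exon bases overlap *Acaa1a* on the opposite strand. It measured 40.1 and 39.2 CPM in MIZ-1WT and 43.9 and 45.6 CPM in MIZ-1DPOZ, without overlap. The difference of 0.17 on the log2 scale (standard error 0.06) missed the threshold with an adjusted p of 0.0560. It passed when genes with a mean under 30 RPM (reads scaled to the library total) were left out (0.25, adjusted p = 0.0151), a filter whose scaling shifted the log2 fold changes of the kept genes by a median of 0.0762, as much as that of *Myd88*.

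Per kilobase of exon, *Ly86* was the most abundant of the 10 genes in MIZ-1WT, at 74.3 ± 0.407 CPM per kilobase (SD, n = 2). *Tlr1* followed at 53.1 ± 0.401 CPM per kilobase, then *Cd180* with 30.3 and 29.6 in replicates 1 and 2, *Tlr4* at 19.4 ± 0.397, *Tlr7* at 17.7 ± 1.17 and *Myd88* at 15.4 ± 0.256. *Tlr2* (8.17 ± 0.308), *Tlr9* (7.64 ± 1.03), *Tlr6* (3.44 ± 0.423) and *Tlr3* (1.89 ± 0.0306) were lower, and *Tlr2* and *Tlr9* were the only neighbors in this order whose libraries overlapped. In MIZ-1DPOZ, *Tlr7* moved from the fifth to the third place at 31.8 ± 0.819 CPM per kilobase, above *Cd180* (24.7 ± 4.76) and *Tlr4* (24.3 ± 2.82), which overlapped. *Tlr3* moved from the last place to above *Tlr6*, at 5.54 ± 0.576 CPM per kilobase against 3.59 ± 0.272, and overlapped with *Tlr9* (6.54 ± 1.36).

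**Figure D3:**
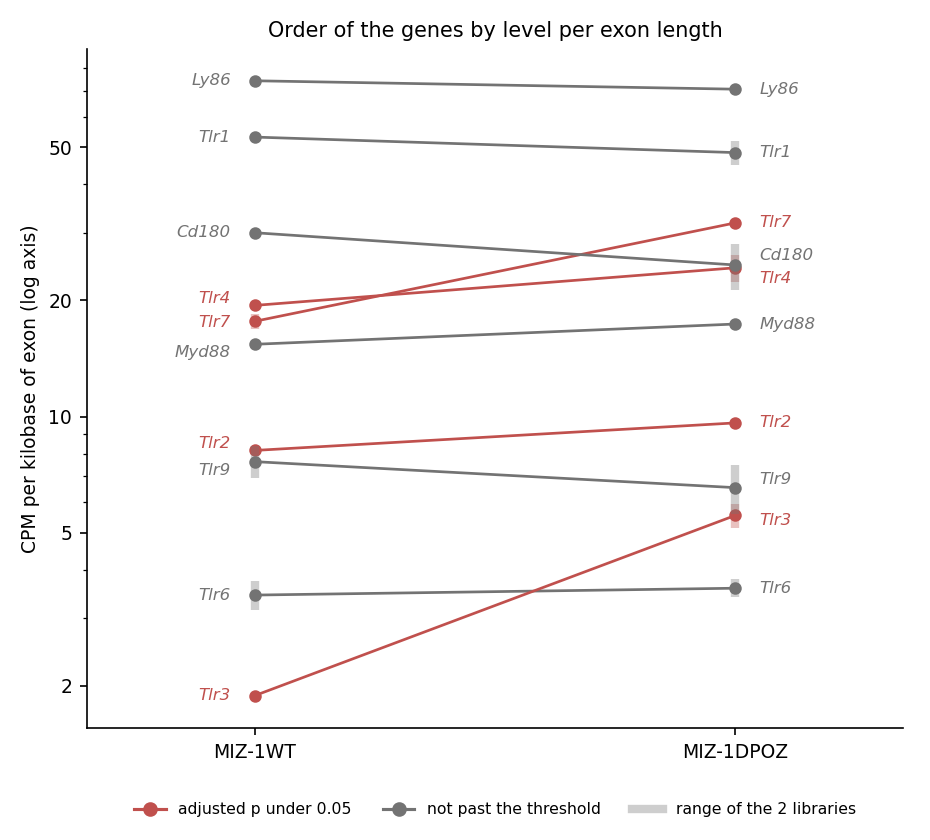
Mean CPM per kilobase of exon (vertical axis, log axis) of the 10 genes in MIZ-1WT and MIZ-1DPOZ, joined by lines, with bars for the range of the 2 libraries and red for an adjusted p under 0.05. The lines of *Tlr7* and *Tlr3* cross those of other genes, *Tlr7* ending at 31.8 and *Tlr3* at 5.54 CPM per kilobase.

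Of 58 other genes of Toll-like receptor signaling, 57 were in the table and 55 were tested. In MIZ-1DPOZ 16 of them were higher and 13 lower, and 26 did not pass. These shares stand beside the 21.1% and 18.9% of all tested genes, and the median log2 fold change was -0.0016. With a library left out, this median ran from -0.00011 to 0.020. Without either MIZ-1WT library fewer of these genes were called, as of all tested genes. The counts of the smaller groups below stand beside the same 21.1% higher and 18.9% lower.

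Of 4 other Toll-like receptor genes tested, 3 rose. *Tlr13*, a sensor of bacterial ribosomal RNA, went from 6.35 and 7.76 CPM to 41.2 and 27.2 CPM (log2 fold change 2.28, adjusted p = 0.00180). *Tlr8*, the neighbor of *Tlr7* on the X chromosome, went from 6.92 and 8.66 CPM to 42.5 and 24.0 CPM (2.09, adjusted p = 0.00426). *Tlr11*, a sensor of profilin, rose as well but had only 26 and 36 counts against 90 and 81 counts (1.36, adjusted p = 0.0108). Named after their values were seen, *Tlr12* did not pass (-0.021, adjusted p = 0.919), and *Tlr5* had at most 9 counts in a library and was not tested. Among the helpers of TLR4, *Cd14* rose from 5.48 and 6.35 CPM to 31.2 and 13.8 CPM (1.93, adjusted p = 0.0127) and *Ly96*, which encodes MD-2, from 6.26 and 6.33 CPM to 11.9 and 10.2 CPM (0.81, adjusted p = 0.00532), while *Lbp*, also named afterwards, was too low to be tested.

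Of 14 genes for trafficking and processing of the endosomal receptors, 7 were higher and 1 was lower. The lysosomal protease genes *Ctsb*, with 301 and 344 CPM against 1131 and 752 CPM (1.55, adjusted p = 0.00321), and *Lgmn*, with 160 and 178 CPM against 377 and 305 CPM (1.01, adjusted p = 0.00230), changed most. *Pld3*, which encodes an endolysosomal nuclease, rose from 58.5 and 58.0 CPM to 119 and 96.2 CPM (0.89, adjusted p = 0.00271). *Slc15a4*, a lysosomal transporter needed for TLR7 and TLR9 responses, fell from 292 and 283 CPM to 204 and 210 CPM (-0.47, adjusted p = 0.00178). *Unc93b1*, named after its values were seen, had 733 and 699.8 CPM in MIZ-1WT and 719 and 759.6 CPM in MIZ-1DPOZ, which overlapped (0.05, adjusted p = 0.550). *Ctsb* shares 774 exon bases with *Fdft1* and *Slc15a4* 427 with *Gm43474* on the opposite strand.

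Of 18 kinases and ubiquitin ligases, 5 were lower and 1 was higher. *Ikbkb*, which encodes the kinase IKK-beta of the NF-kappaB pathway, fell from 356 and 357 CPM to 189 and 211 CPM (-0.83, adjusted p = 0.00108) and was the only gene of the list that passed the study's limits as lower. The ubiquitin ligase gene *Peli1* fell by 0.44 (adjusted p = 0.0121), *Traf3* by 0.40 (adjusted p = 0.00344) and *Irak2*, a kinase gene of the MYD88 complex, by 0.28 on the log2 scale (adjusted p = 0.00802). Among the negative regulators, 3 of 9 were lower and 1 was higher. *Irak3* (-0.48, adjusted p = 0.00578), *Rnf216* (-0.34, adjusted p = 0.00484) and *Sigirr* (-0.31, adjusted p = 0.0170), whose products restrain the signal, fell. *Irak2*, *Irak3* and *Rnf216* overlap genes on the opposite strand.

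The remaining groups were small, and their genes were named after their values were seen. Of 4 transcription factors, *Irf3* (-0.25), *Irf5* (-0.20) and *Irf8* (-0.19) fell, and *Irf7* did not pass (0.56, adjusted p = 0.0851). Of 4 adaptors, *Ticam2* (0.65) and *Tirap* (0.23) rose and *Pik3ap1* fell (-0.22). *Ticam2* had at most 265 counts in a library and shares 838 exon bases with *Tmed7* on the same strand, so its count is uncertain. *Tirap*, *Irf3*, *Irf5* and *Irf7* overlap genes on the opposite strand. *Ticam1*, the adaptor gene of TLR3, did not pass (-0.18, adjusted p = 0.304). *Traf6* (-0.21) was the fifth gene that fell among the kinases and ligases, *Tab1* (0.31) the one that rose there and *Socs1* (0.71) the one that rose among the negative regulators.

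**Figure D4:**
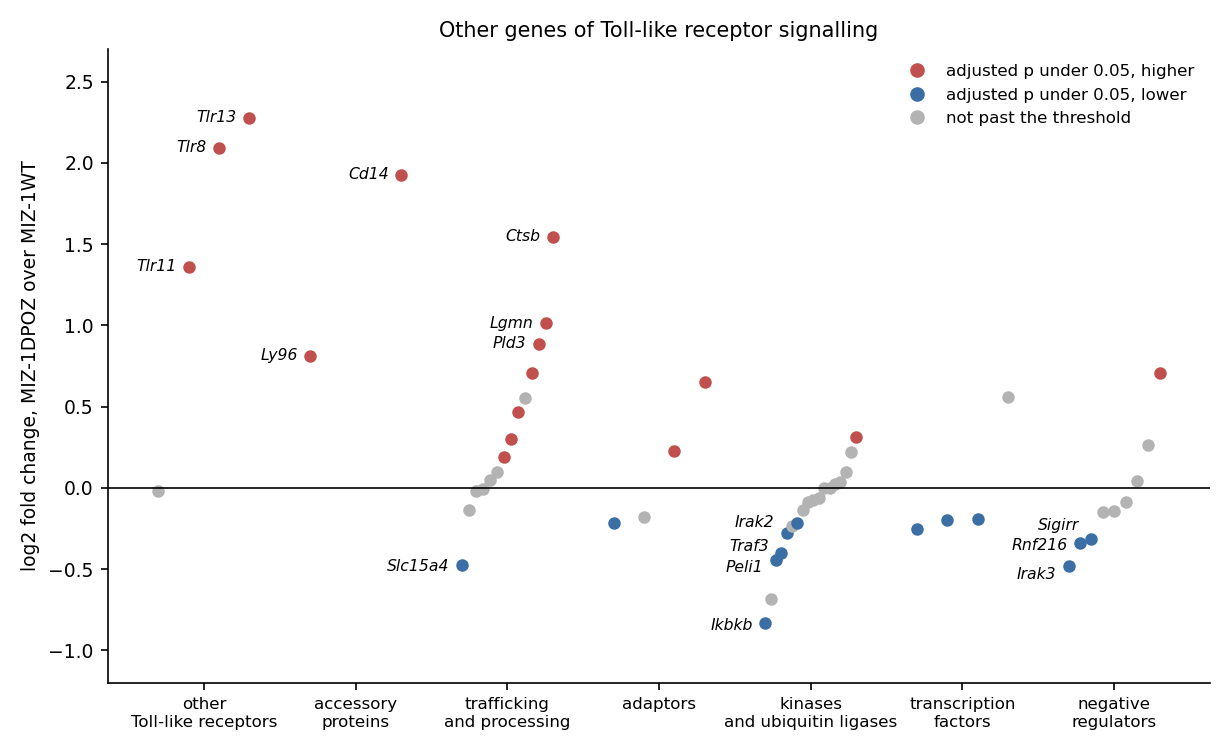
Log2 fold change (vertical axis, MIZ-1DPOZ over MIZ-1WT) of the 55 tested genes by role, red for higher and blue for lower at an adjusted p under 0.05 and grey for the others, with a label to the left of the genes with the largest changes. *Tlr13* stands highest at 2.28 and *Ikbkb* lowest at -0.83.

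Markers of several cell types moved with the genotype, and their part in the results for the receptors was not tested. In bulk samples, fewer cells of a type and less RNA per cell cannot be told apart. By flow cytometry, the study reported fewer follicular B cells in MIZ-1DPOZ spleens and marginal zone B cells at a higher frequency. How far this bears on these libraries was not tested. The 8 marginal zone B cell genes were all higher in MIZ-1DPOZ (median log2 fold change 0.66), with a summed level of 3289 and 3288 CPM against 4118 and 4422 CPM. Of 5 follicular B cell genes 3 were lower (median -0.51), with 1731 and 1849 CPM against 1416 and 1522 CPM. Of 10 pan-B cell genes 8 were lower (median -0.28), with 10521 and 10822 CPM against 8645 and 9048 CPM. The B cell lists thus moved in both directions, beside 21.1% of all tested genes called higher and 18.9% lower. The pan-B cell list holds *Cd79a* (-1.44), the gene with the Cre.

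The median of the macrophage genes was 2.00 on the log2 scale. *Adgre1* (F4/80) had 77.2 and 104 CPM against 376 and 218 CPM, and *Csf1r* 86.2 and 106 CPM against 439 and 312 CPM, so neither was near 0 in any library. Of 8 conventional dendritic cell genes 4 were higher and 1 was lower, with 40.6 and 41.4 CPM in sum against 71.5 and 53.1 CPM, and *Itgax* had 10.8 and 13.9 CPM against 33.9 and 21.1 CPM. Of 7 tested monocyte and neutrophil genes 3 were higher. Of 8 plasmacytoid dendritic cell genes 1 was higher and 7 did not pass, with 88.7 and 82.5 CPM in sum against 88.8 and 67.5 CPM, and *Siglech* had 45.0 and 45.5 CPM against 42.0 and 26.4 CPM. Of 10 T cell genes 1 was higher and of 6 NK cell genes 2 were higher, beside 21.1% of all tested genes. The T cell genes summed to 79.2 and 59.1 CPM against 74.6 and 79.8 CPM. *Cd3e*, at 0.550 CPM or less, was the lowest of them. The NK cell genes summed to 53.1 and 51.4 CPM against 58.1 and 62.5 CPM, with *Ncr1* between 6.83 CPM and 8.499 CPM.

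The MIZ-1DPOZ libraries differed from each other in macrophage transcripts and in those of other marker lists. The macrophage genes were higher in replicate 1 than in replicate 2 by a median of 0.64 on the log2 scale. The plasmacytoid (0.59) and conventional (0.25) dendritic cell genes were also higher there by the median. The monocyte and neutrophil (-0.91), T cell (-0.24) and NK cell (-0.090) genes were lower. *Tlr4* (0.24) was higher in replicate 1 too. Of the signaling genes that rose most, *Cd14* (1.18), *Tlr8* (0.83), *Tlr13* (0.60), *Ctsb* (0.59), *Pld3* (0.31), *Lgmn* (0.31) and *Ly96* (0.22) were higher there, and *Tlr11* differed little (0.035). *Tlr3* differed the other way, by -0.21, as did *Tlr6* (-0.15), *Tlr1* (-0.20), *Cd180* (-0.40) and *Tlr9* (-0.43). So did the medians of the marginal zone (-0.10), pan-B cell (-0.10) and follicular B cell genes (-0.15). *Tlr7* (0.05), *Tlr2* (-0.077), *Myd88* (-0.054) and *Ly86* (-0.0095) differed less between these libraries. The MIZ-1WT libraries differed as well (replicate 1 over replicate 2, log2 scale). The medians were -0.38 for macrophage, 1.17 for monocyte and neutrophil and 0.54 for T cell genes. They were 0.22 for plasmacytoid and -0.0097 for conventional dendritic cell and -0.030 for NK cell genes. *Tlr11* (-0.52), *Tlr8* (-0.32), *Tlr13* (-0.29), *Cd14* (-0.21), *Ctsb* (-0.19) and *Lgmn* (-0.15) were lower in replicate 1. *Ly96* (-0.016) and *Pld3* (0.014) differed little. With 1 library on each side these are descriptions without a test. With MIZ-1DPOZ replicate 1 left out, the log2 fold changes were 1.66 for *Tlr3*, 0.83 for *Tlr7*, 0.28 for *Tlr2* and 0.21 for *Tlr4*. The macrophage list stood at 1.70 on the log2 scale above MIZ-1WT in the remaining replicate 2, and its part in these values was not tested.

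**Figure D5:**
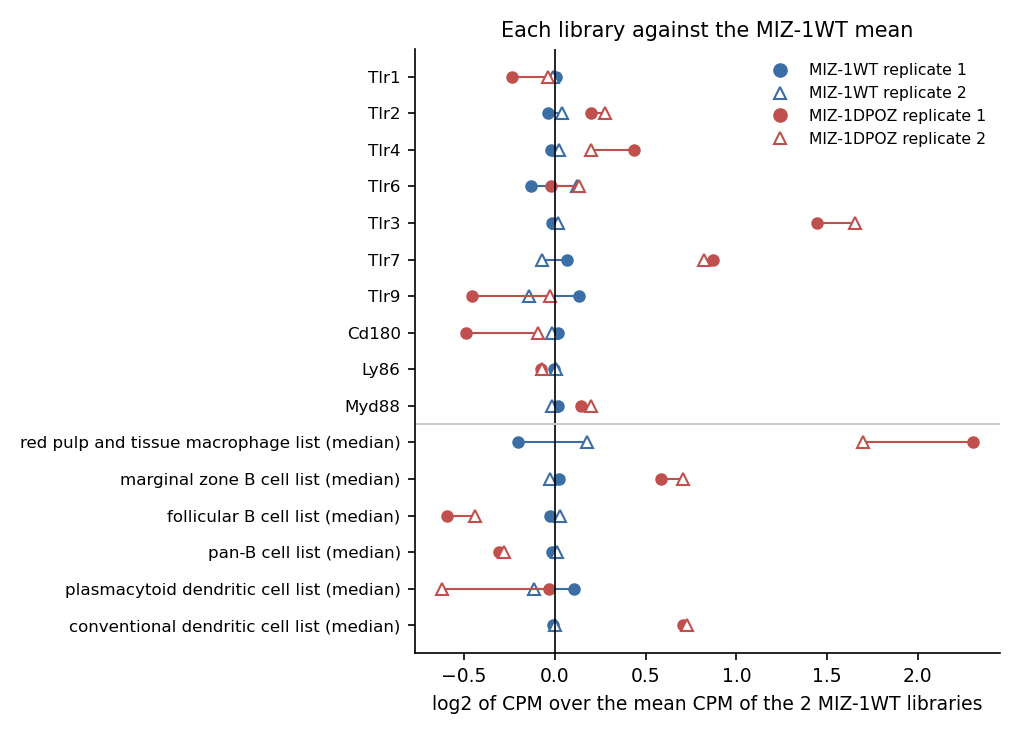
Log2 of the CPM in each library over the mean of the MIZ-1WT libraries (horizontal axis) for the 10 genes and, below the grey line, for the median gene of 6 marker lists, with circles for replicate 1 and triangles for replicate 2. The macrophage list stands at 2.30 and 1.70 in MIZ-1DPOZ replicates 1 and 2, and *Tlr3* at 1.44 and 1.65. The differences between single libraries were not tested.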

How the data were processed

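The authors trimmed paired-end reads of ribosome-depleted, stranded libraries with Trimmomatic, aligned them to mm10 (GRCm38) with TopHat2 (version 2.1.0 in the submitters' processing notes) and deposited raw HTSeq counts per Ensembl gene, which they neither normalized nor pooled. The strand setting is not given in the sources used here. The study calls the replicates biological, but nothing says that each came from a separate mouse. The p-values rest on the spread between these libraries, with information on variance shared across genes by the quasi-likelihood fit. HTSeq's summary lines entered no library size or test. They held reads that HTSeq assigned to no feature (at most 27.2% of a column), ambiguous reads (at most 0.302%) and alignments that were not unique (at most 44.1%).

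The fit kept 14554 of 41214 genes, those reaching 10 counts in 2 libraries or more. It used edgeR version 4.0.16 (R version 4.3.3), TMM factors between 0.977 and 1.03 and the quasi-likelihood test with genotype as the only term. The p-values were adjusted after Benjamini and Hochberg across the 14554 genes, with a threshold of 0.05. A standard error is the log2 fold change divided by the root of its F statistic. Symbols and merged exon lengths came from GENCODE M21, which named 40340 genes. *Tasl* and *Ighd*, which were on the lists, were not matched. Promoters came from RefSeq. The code was tested on simulated data.

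The members, lists and alternatives were chosen with earlier results of these data known. By rule, the text names the 10 members, the defining markers, *Zbtb17*, *Xist* and Y-linked genes and, from the other signaling genes, the 8 largest called changes in each direction without overlap of the genotypes. Other genes were named after their values were seen. A marker that meets the rule is not reported here. Alternatives were the size factors of DESeq2, its Wald test (version 1.42.0), no filter, a floor of 30 RPM on the average level, a replicate block and the removal of each library, where the lone library left in a genotype was assumed to vary like the others. How many of the 10 genes were called under each was added after the data were seen.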

Additional observations from a re-analysis of the deposited data

How the results depend on the processing

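With the size factors of DESeq2, the 10 genes and the other signaling genes gave the same numbers of calls in each direction. The floor of 30 RPM left 6052 genes, 6 of the 10 among them, so that fewer could be called, 2746 overall and 7 higher and 8 lower among the signaling genes. It turned the log2 fold change of *Ly86* to 0.0037 (adjusted p = 0.949) and brought *Myd88* past the threshold (0.25, adjusted p = 0.0151). Its scaling shifted the log2 fold changes of the kept genes by a median of 0.0762, and both genes moved by that amount. *Tlr2* was no longer called with the Wald test of DESeq2 (0.24), without a filter (0.23) and with the replicate block (0.24), and the cause was not tested.

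Leaving out each library in turn gave 2222 to 5581 called genes, the fewest without MIZ-1WT replicate 1 (2843 without MIZ-1WT replicate 2), with fewer samples in the fit. Of the signaling genes 6 to 18 were higher and 4 to 14 lower, and of the 10 genes 2 to 4 were higher. Log2 fold changes ranged from -0.22 to -0.028 for *Tlr1*, from 0.20 to 0.28 for *Tlr2*, from 0.21 to 0.46 for *Tlr4*, from -0.063 to 0.19 for *Tlr6*, from -0.43 to -0.017 for *Tlr9* and from -0.47 to -0.085 for *Cd180*.

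Nothing in the labels ties libraries with the same replicate number, and the differences between replicates 1 and 2 correlated at -0.069 between the genotypes across 14554 genes, which are not independent. With the replicate block 4732 genes were called instead of 5822, 16 of the signaling genes were higher and 9 lower, and 3 of the 10 genes were higher.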

Other observations

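Beside *Tlr7*, the signaling genes hold 5 X-linked genes that were tested, named here after their values were seen apart from *Tlr8* and *Tlr13*. *Tlr8* (7.79 ± 1.23 CPM in MIZ-1WT against 33.2 ± 13.1 in MIZ-1DPOZ, SD, n = 2) and *Tlr13* (7.05 ± 0.994 CPM against 34.2 ± 9.92) were higher. *Irak1*, which encodes a kinase of the MYD88 complex, had 80.4 ± 0.0983 CPM in MIZ-1WT and 80.4 ± 11.9 CPM in MIZ-1DPOZ and did not pass (adjusted p = 0.995). *Ikbkg* (log2 fold change 0.03, adjusted p = 0.598) and *Tab3* (-0.24, adjusted p = 0.0793) did not pass either.

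The level of *Tlr4* per kilobase was 0.631 and 0.665 times that of *Cd180* in MIZ-1WT replicates 1 and 2 and 1.23 and 0.795 times in the MIZ-1DPOZ replicates. The genotypes did not overlap, but the MIZ-1DPOZ libraries lay far apart. The 74.8% of all tested genes without overlap is of levels of single genes and not of ratios. *Tlr1* exceeded *Tlr2* by 6.71 and 6.30 times in MIZ-1WT and by 4.80 and 5.23 times in MIZ-1DPOZ. These ratios were not tested.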
